A study of Homo sapiens with 10 samples.

Results

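ABTr3 is 1 of 4 clones of the ovarian cancer line PEO1 that became resistant to the PARP inhibitor veliparib, and its gene expression was set against that of parental PEO1 across all genes of the deposited count table. The comparison used 4 of the 10 libraries directly, 2 of ABTr3 and 2 of PEO1, chosen by their column names. Of the 25370 genes in the table, 16490 had enough reads to be tested. ABTr3 was raised by 6 months of culture in veliparib at 40 µM, and the drug was withdrawn 4 to 5 days ahead of RNA extraction. The PEO1 libraries were the parental cells, in the labels the wild type for resistance. All were cultured in DMEM with fetal bovine serum, and all descend from 1 line, an established line of high grade serous ovarian carcinoma that lacks functional BRCA2. ABTr3 is 1 clone, so its values are those of 1 clone and not of resistance in general. The clone number in its sample description differs from the library name, and the library name is used here. The other 6 libraries, of the clones ABTr1, ABTr2 and ABTr4, helped to estimate the spread and served as a second comparison.

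PARP1 binds breaks in DNA strands and helps to repair them, and cells that lack BRCA2 cannot mend by homologous recombination the damage that trapped PARP leaves at replication forks. Cells can escape such drugs by restored recombination, by protection of the fork, by drug export or with a change of cell state. Epithelial cells adhere through E-cadherin, tight junctions and desmosomes, held in place by transcription factors such as GRHL2 and OVOL1, while ZEB1, ZEB2 and SNAI2 repress these genes in mesenchymal cells.

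Total counts were 49749872 and 33883646 in the ABTr3 libraries and 44602090 and 30368855 in the PEO1 libraries. Levels are given as CPM, which are counts scaled to a common library size, after TMM normalization, replicate 1 before replicate 2. A gene was called at an adjusted p under 0.05 in edgeR's quasi-likelihood test, fitted over all 10 libraries. Libraries with the same number deviated together in all 10 pairs of groups, so the replicate number was also used as a block in a fit of each value. Replicate 1 had more total counts than replicate 2 in every group, and the part of depth in these deviations was not tested. The labels do not say whether the 2 libraries of a group came from separate cultures, so p-values measure the spread between libraries. Across genes, which are not independent replicates, the log2 CPM values correlated (Pearson's r) at 0.969 between the ABTr3 libraries, 0.959 between the PEO1 libraries and 0.894 to 0.939 across the groups.

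Without the block, 574 genes were higher and 642 were lower in ABTr3, 7.37% of the genes tested (3.48% higher and 3.89% lower). The block raised the count to 1810 higher and 1912 lower (22.6%, of which 11% higher and 11.6% lower). All 1216 genes called without the block were also called with it and with the same sign. All 2506 genes called with the block alone had the same sign in both pairs of libraries. This is no separate support, since the fit with the block compares libraries of the same number. The groups did not overlap in CPM for 50.2% of the tested genes, so a gap between the groups is in itself common. Both pairs showed at least 2-fold higher levels in ABTr3 for 8.07% of genes and at least 2-fold lower levels for 5.88%, while the pairs differed in sign for 30.3%. In a fit that leaves a group with 1 library, a lost call does not show that it rested on the library removed. The count of calls changed in these fits. It was 203 without ABTr3 replicate 1, 81 without ABTr3 replicate 2, 1256 without PEO1 replicate 1 and 301 without PEO1 replicate 2. Of the 103 genes of the naming rule that were called without the block, 22 kept the call without any 1 of these libraries. Beside the median of a list stands its range over these 4 fits. The count of calls in any list is to be read against 7.37% without and 22.6% with the block over all tested genes.

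**Figure D1:**
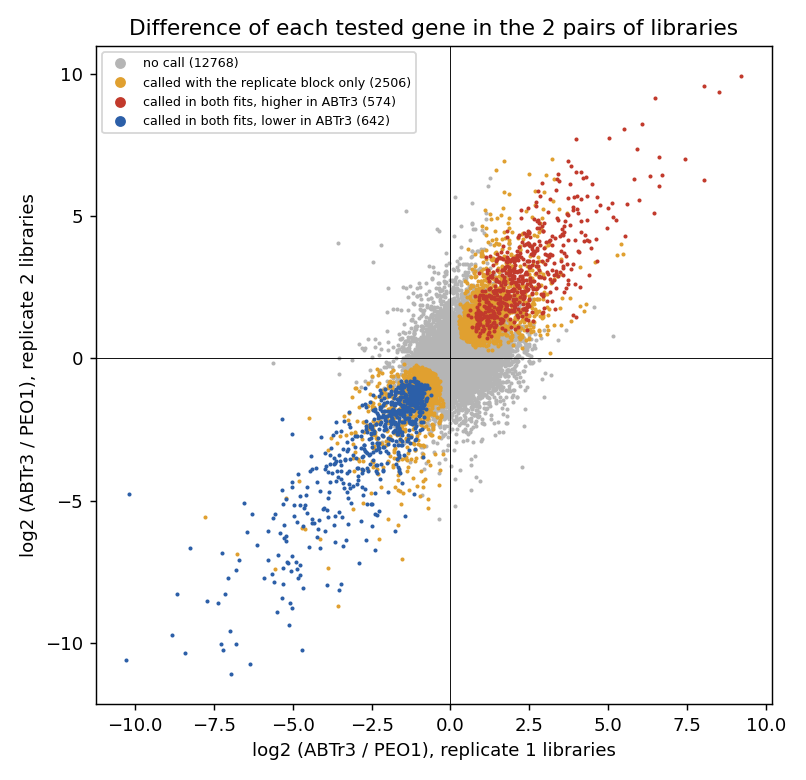
Each point is 1 of 16490 tested genes, with the log2 ratio of ABTr3 over PEO1 in the replicate 1 libraries on the x axis and in the replicate 2 libraries on the y axis. Genes called in both fits (574 higher in red, 642 lower in blue) and genes called with the replicate block alone (2506, orange) lie in the quadrants where both pairs have the same sign.

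Among genes that reached 5 CPM in the higher group, IL13RA2, IL1B and EEF1A2 had the largest rises. IL1B had 235 and 248 CPM in the ABTr3 libraries, against 0.298 and 0.155 CPM in the PEO1 libraries (log2 fold change 9.98 ± 1.31 by SE, edgeR adjusted p = 0.0059). IL1B, at chr2:113587337-113594356 (hg19), codes for interleukin 1 beta, a secreted inflammatory cytokine. IL13RA2 had 63.3 and 66 CPM in the ABTr3 libraries, against 0.0744 and 0 CPM in the PEO1 libraries (log2 fold change 10.41 ± 2.02 by SE, edgeR adjusted p = 0.023). This decoy receptor for interleukin 13 had 3 reads in all in PEO1, so its ratio of 1420 carries an interval of 486 to 6890 (95%, counting error only). EEF1A2 had 71.3 and 194 CPM in the ABTr3 libraries, against 0.174 and 0.155 CPM in the PEO1 libraries (log2 fold change 9.62 ± 1.14 by SE, edgeR adjusted p = 0.0045). EEF1A2, at chr20:62119365-62130668, is the translation elongation factor isoform of muscle and neurons. For all 3 genes both ABTr3 libraries were more than 100 times the PEO1 libraries.

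CSF2, which codes for the myeloid growth factor GM-CSF, had 11.9 and 16.2 CPM in ABTr3, against 0.0992 and 0 CPM in PEO1. The interstitial collagenase MMP1 had 45.9 and 22.3 CPM in ABTr3, against 0.0744 and 0.193 CPM in PEO1. HCLS1, an actin regulator of blood cells, had 38.3 and 53 CPM in ABTr3, against 0.124 and 0.310 CPM in PEO1. The 3 genes were near 0 in PEO1 and well above it in ABTr3, with log2 fold changes of 7.85, 8.05 and 7.78 (edgeR adjusted p = 0.0067, 0.042 and 0.0013). MAOA, which breaks down monoamines, had 43.1 and 34 CPM in ABTr3, against 0.347 and 0.155 CPM in PEO1, and the transcription factor FLI1 had 3.41 and 7.71 CPM in ABTr3, against 0 and 0.0774 CPM in PEO1. Their log2 fold changes were 7.18 and 7.31 (edgeR adjusted p = 0.0042 and 0.0069). The meiosis gene MEI1, VAT1L, KIAA1644 and the uncharacterized LOC100507065 completed the 12 largest rises, with log2 fold changes of 8.13, 7.37, 8.30 and 8.17. KIAA1644 had 2 reads in all in PEO1, which gives a ratio of 363 and, from counting alone, a 95% interval of 100.0 to 3000. MEI1 had 1 read in all in PEO1, which gives a ratio of 297 and, from counting alone, a 95% interval of 52.9 to 11700. FLI1 had 2 reads in all in PEO1, which gives a ratio of 169 and, from counting alone, a 95% interval of 46.4 to 1400. Leaving out 1 library ended the call of IL13RA2 and MMP1 without ABTr3 replicate 1 (adjusted p of 0.077 to 0.14), and of IL13RA2, CSF2, MMP1, FLI1 and MEI1 without ABTr3 replicate 2 (adjusted p of 0.051 to 0.13), and of IL13RA2 and MMP1 without PEO1 replicate 1 (adjusted p of 0.072 to 0.15), and of IL1B, IL13RA2, MMP1 and MEI1 without PEO1 replicate 2 (adjusted p of 0.051 to 0.18). The calls of EEF1A2, HCLS1, MAOA, VAT1L, KIAA1644 and LOC100507065 held without any 1 of the 4 libraries.

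VGLL1, GRHL2 and ESR1 were nearly absent from ABTr3. VGLL1 had 0 and 0 CPM in the ABTr3 libraries, against 124 and 154 CPM in the PEO1 libraries (log2 fold change -15.35 ± 0.94 by SE, edgeR adjusted p = 0.0010). VGLL1, a cofactor of TEAD transcription factors at chrX:135614311-135638966 (hg19), had no read in ABTr3. With 3 counts over both libraries as the floor, it was at least 3890-fold lower, and the log2 fold change measures no size beyond this bound. GRHL2 had 0.191 and 0.0295 CPM in the ABTr3 libraries, against 132 and 110.1 CPM in the PEO1 libraries (log2 fold change -9.92 ± 1.01 by SE, edgeR adjusted p = 0.0043). ESR1 had 0.134 and 0.295 CPM in the ABTr3 libraries, against 94.2 and 123 CPM in the PEO1 libraries (log2 fold change -9.02 ± 0.62 by SE, edgeR adjusted p = 0.0010). ESR1 at chr6:152011631-152424408 codes for estrogen receptor alpha. For these 3 genes both ABTr3 libraries were under 0.3 CPM and both PEO1 libraries over 90 CPM.

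In other genes that fell, the PEO1 libraries differed widely. IGFBP5, which binds insulin-like growth factors, had 3.98 and 5.35 CPM in ABTr3, against 333 and 9277 CPM in PEO1 (log2 fold change -10.01 ± 1.69 by SE, edgeR adjusted p = 0.014). CEACAM6, an adhesion molecule whose reads can be shared with close relatives, had 0.0574 and 0 CPM in ABTr3, against 3.99 and 122 CPM in PEO1. KRT5, a basal keratin, had 0.0766 and 0.236 CPM in ABTr3, against 205 and 8.98 CPM in PEO1. In each of the 3 the PEO1 libraries differed more than 20-fold from each other and still lay above both ABTr3 libraries. The immune checkpoint ligand VTCN1 had 0 and 0 CPM in ABTr3, against 3.97 and 34.6 CPM in PEO1, and the secretory protein disulfide isomerase AGR2 had 0 and 0 CPM in ABTr3, against 0.645 and 14.6 CPM in PEO1. VTCN1, AGR2, RBBP8NL and the cation transporter SLC22A2 had no read in ABTr3. With both PEO1 libraries pooled, they were at least 457-fold, 175-fold, 184-fold and 127-fold lower against the same floor. PEO1 replicate 1 alone would give a smaller fold for VTCN1, AGR2 and SLC22A2. The PEO1 levels of SLC22A2 were 0.422 and 10.7 CPM. Its neighbour SLC22A3, the gap junction gene GJA5 and ALDH3B2 had log2 fold changes of -9.73, -11.74 and -9.82. GJA5 had 2 reads in all in ABTr3, which gives a ratio of PEO1 over ABTr3 of 3450 and, from counting alone, a 95% interval of 955 to 28500. CEACAM6 had 3 reads in all in ABTr3, which gives a ratio of PEO1 over ABTr3 of 1440 and, from counting alone, a 95% interval of 493 to 7000. ALDH3B2 had 1 read in all in ABTr3, which gives a ratio of PEO1 over ABTr3 of 1130 and, from counting alone, a 95% interval of 201 to 44500. Calls lost without ABTr3 replicate 1 were those of IGFBP5, CEACAM6, KRT5, VTCN1, AGR2, RBBP8NL, SLC22A2, GJA5 and ALDH3B2. Without ABTr3 replicate 2 they were those of GRHL2, IGFBP5, CEACAM6, KRT5, VTCN1, AGR2, RBBP8NL, SLC22A2, SLC22A3, GJA5 and ALDH3B2. KRT5 lost its call without PEO1 replicate 1, and CEACAM6, KRT5, VTCN1, AGR2, RBBP8NL and SLC22A2 lost theirs without PEO1 replicate 2. VTCN1, AGR2, RBBP8NL and SLC22A2 had no read in either ABTr3 library, so their lost calls do not show reliance on 1 of these. The call of VGLL1 held without any 1 of the 4 libraries.

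**Figure D2:**
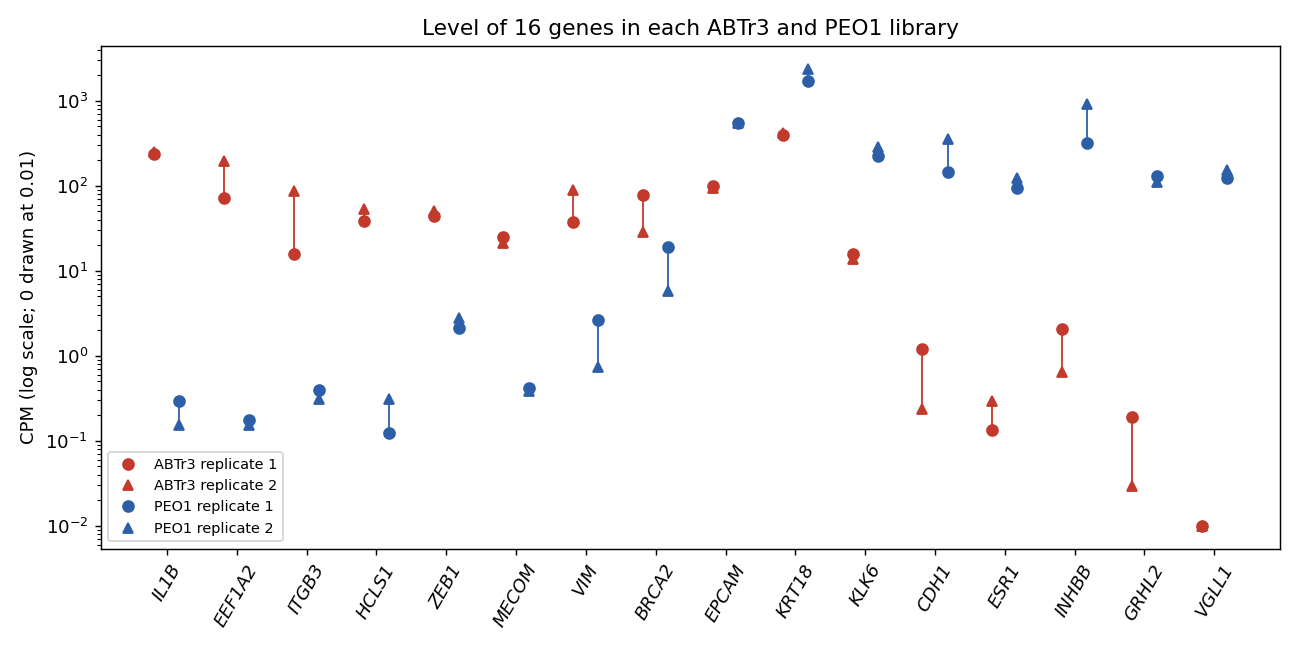
CPM on a log axis (0 drawn at 0.01) of 16 genes in each library, ABTr3 in red left of PEO1 in blue, with circles for replicate 1 and triangles for replicate 2 joined by a line. The 8 genes on the left were higher in both ABTr3 libraries than in both PEO1 libraries, the 8 on the right were lower, and BRCA2 is the gene with the smallest gap between the groups.

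The epithelial program fell across its length. Of 28 epithelial identity genes tested, 0 rose and 22 fell without the block, and 0 rose and 26 fell with it. The median log2 fold change was -3.13, against 0.06 over all tested genes. The count of falls without 1 library was 5 without ABTr3 replicate 1, 1 without ABTr3 replicate 2, 20 without PEO1 replicate 1 and 9 without PEO1 replicate 2. CDH1, which codes for E-cadherin, lies at chr16:68771195-68869444 (hg19). CDH1 had 1.21 and 0.236 CPM in the ABTr3 libraries, against 147 and 358 CPM in the PEO1 libraries (log2 fold change -8.39 ± 1.27 by SE, edgeR adjusted p = 0.0093). EHF had 1.97 and 2.63 CPM in the ABTr3 libraries, against 182 and 189 CPM in the PEO1 libraries (log2 fold change -6.34 ± 0.51 by SE, edgeR adjusted p = 0.0015), and this factor of the ETS family belongs to glandular epithelia. EPCAM had 100.4 and 93.2 CPM in the ABTr3 libraries, against 544 and 543 CPM in the PEO1 libraries (log2 fold change -2.49 ± 0.27 by SE, edgeR adjusted p = 0.0042). The PEO1 libraries differed little in EHF and EPCAM, and EPCAM kept about 100 CPM in ABTr3 while CDH1 was under 2 CPM.

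Epithelial regulators and surface proteases fell as well. The repressor genes OVOL1 and OVOL2 had log2 fold changes of -5.99 and -6.75, the splicing regulator ESRP1 -8.42 and GRHL1 -5.03. The membrane proteases PRSS8 and ST14 had -7.20 and -2.78, and the protease inhibitor SPINT1 had -2.55. Keratins fell by less, with KRT18 at 392 and 417 CPM in ABTr3, against 1691 and 2379 CPM in PEO1 (log2 fold change -2.33 ± 0.30 by SE, edgeR adjusted p = 0.0058) and KRT8 at a log2 fold change of -1.60. ELF3, ESRP2, SPINT2 and KRT23 were called with the block alone (-5.18, -1.65, -1.50 and -1.54 in that fit). With 1 library left out, calls were lost for CDH1, OVOL1, OVOL2, ESRP1, GRHL1, ST14, SPINT1, KRT18 and KRT8 without ABTr3 replicate 1 (adjusted p of 0.054 to 0.23), and for CDH1, EPCAM, OVOL1, OVOL2, ESRP1, GRHL1, PRSS8, ST14, SPINT1, KRT18 and KRT8 without ABTr3 replicate 2 (adjusted p of 0.051 to 0.16), and for OVOL2, ESRP1, GRHL1, SPINT1 and KRT8 without PEO1 replicate 2 (adjusted p of 0.054 to 0.18). The call of EHF held without any 1 of the 4 libraries.

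Junction genes moved the same way. Of 24 tight junction and desmosome genes tested, 0 rose and 13 fell without the block, and 0 rose and 19 fell with it (median log2 fold change -1.93, range -2.24 to -1.85). With single libraries left out it was 1 without ABTr3 replicate 1, 1 without ABTr3 replicate 2, 11 without PEO1 replicate 1 and 5 without PEO1 replicate 2. PKP2, a plaque protein of desmosomes, had 23.6 and 22.1 CPM in ABTr3, against 109.6 and 106 CPM in PEO1 (log2 fold change -2.24 ± 0.24 by SE, edgeR adjusted p = 0.0042). The tight junction gene OCLN had 8.16 and 14.4 CPM in ABTr3, against 87.4 and 132 CPM in PEO1. MARVELD2, of the same junctions, had 1.51 and 2.10 CPM in ABTr3, against 13.8 and 23.2 CPM in PEO1. For each of these genes both ABTr3 libraries were far below either PEO1 library. CLDN7 and CRB3, of tight junctions and of apical polarity, had larger changes, with log2 fold changes of -5.66 and -5.40, and the envelope protein EVPL a smaller one of -1.79. TJP1, DSP and JUP were called with the block alone, at -0.72, -1.02 and -2.55. Among these genes, omission of 1 library ended the call of OCLN, MARVELD2, CLDN7, CRB3 and EVPL without ABTr3 replicate 1 (adjusted p of 0.054 to 0.12), and of OCLN, MARVELD2, CLDN7, CRB3 and EVPL without ABTr3 replicate 2 (adjusted p of 0.058 to 0.15), and of CLDN7 and CRB3 without PEO1 replicate 2 (adjusted p of 0.051 to 0.074). The call of PKP2 held without any 1 of the 4 libraries.

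The repressors ZEB1, ZEB2 and SNAI2 bind the E-box CACCTG, or CAGGTG on the other strand. RefSeq promoters (GRCh38.p14, 250 bases before to 50 after the start site) are shown for 4 genes that fell and hold this motif, for EHF, which fell and holds none, and for ZEB1, which rose. RAB25 and LAMA3 were chosen after their values were seen. The motif is in capitals and all else is in lower case.
VGLL1: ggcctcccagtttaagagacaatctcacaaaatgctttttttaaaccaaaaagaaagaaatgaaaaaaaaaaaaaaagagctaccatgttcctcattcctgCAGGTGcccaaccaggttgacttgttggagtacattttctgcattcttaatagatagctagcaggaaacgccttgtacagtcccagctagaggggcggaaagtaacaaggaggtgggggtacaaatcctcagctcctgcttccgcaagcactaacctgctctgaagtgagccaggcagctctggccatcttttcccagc
RAB25: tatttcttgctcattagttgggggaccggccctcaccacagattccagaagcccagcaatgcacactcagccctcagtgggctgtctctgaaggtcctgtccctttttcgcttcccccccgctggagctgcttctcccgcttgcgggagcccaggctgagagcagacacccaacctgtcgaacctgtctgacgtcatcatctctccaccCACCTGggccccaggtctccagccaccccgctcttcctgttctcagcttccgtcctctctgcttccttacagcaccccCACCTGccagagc
LAMA3: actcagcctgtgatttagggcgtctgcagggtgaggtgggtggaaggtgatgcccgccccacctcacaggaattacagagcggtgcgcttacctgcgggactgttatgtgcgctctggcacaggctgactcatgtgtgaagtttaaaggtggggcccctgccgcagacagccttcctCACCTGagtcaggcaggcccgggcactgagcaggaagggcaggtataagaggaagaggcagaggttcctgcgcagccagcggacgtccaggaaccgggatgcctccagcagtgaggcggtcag
KLK6: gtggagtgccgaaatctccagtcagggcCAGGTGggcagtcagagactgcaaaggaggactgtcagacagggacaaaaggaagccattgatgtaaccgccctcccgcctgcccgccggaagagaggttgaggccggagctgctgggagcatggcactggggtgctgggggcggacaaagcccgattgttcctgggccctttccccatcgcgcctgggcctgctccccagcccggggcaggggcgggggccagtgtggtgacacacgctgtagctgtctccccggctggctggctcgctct
EHF: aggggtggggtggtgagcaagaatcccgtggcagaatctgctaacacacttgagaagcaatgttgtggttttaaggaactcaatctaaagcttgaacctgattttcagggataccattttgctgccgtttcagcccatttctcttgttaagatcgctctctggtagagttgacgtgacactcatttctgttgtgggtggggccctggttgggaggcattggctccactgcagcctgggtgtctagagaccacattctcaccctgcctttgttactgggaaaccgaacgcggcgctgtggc
ZEB1: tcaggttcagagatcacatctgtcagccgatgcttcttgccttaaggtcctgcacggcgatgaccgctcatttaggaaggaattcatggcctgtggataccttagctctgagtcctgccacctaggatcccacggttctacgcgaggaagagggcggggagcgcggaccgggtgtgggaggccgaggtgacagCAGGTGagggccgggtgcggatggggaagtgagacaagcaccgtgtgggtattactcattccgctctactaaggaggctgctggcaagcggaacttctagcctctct
These windows are chrX:136531965-136532264, plus strand for VGLL1, chr1:156060910-156061209, plus strand for RAB25, chr18:23872770-23873069, plus strand for LAMA3, chr19:50969542-50969841, minus strand for KLK6, chr11:34624007-34624306, plus strand for EHF and chr10:31318167-31318466, plus strand for ZEB1. Counted from the start site, the first base of the motif lay at -149 in VGLL1, -73 in LAMA3, -222 in KLK6, -57 in ZEB1, and at -41 and 38 in RAB25. The small GTPase RAB25, of epithelial membrane recycling, had 1.36 and 0.148 CPM in ABTr3, against 65.8 and 119 CPM in PEO1 (log2 fold change -6.87 ± 1.24 by SE, edgeR adjusted p = 0.017). LAMA3, a laminin chain of epithelial basement membranes, had 60.5 and 43.9 CPM in ABTr3, against 332 and 106 CPM in PEO1 (log2 fold change -2.07 ± 0.48 by SE, edgeR adjusted p = 0.038). The call was lost for RAB25 and LAMA3 without ABTr3 replicate 1 (adjusted p of 0.056 to 0.14), and for RAB25 and LAMA3 without ABTr3 replicate 2 (adjusted p of 0.11 to 0.21), and for LAMA3 without PEO1 replicate 1 (adjusted p = 0.083), and for RAB25 without PEO1 replicate 2 (adjusted p = 0.061). Of promoters matched to the genes called lower without the block, 126 of 447 (28.2%) held the motif on either strand, against 63 of 395 (15.9%) for genes called higher, 2182 of 11534 (18.9%) for all tested genes with an entry and 20.6% of all 27303 promoters. Of the 28 epithelial genes 10 had an entry and 5 of these held the motif, and of the 7 with an entry that fell, 2 did. A match of letters is not a binding site, and binding was not measured.

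Mesenchymal regulators rose. Of 23 mesenchymal genes tested, 7 rose and 0 fell without the block, and 9 rose and 1 fell with it (median log2 fold change 0.61, range 0.51 to 1.16), and the median was nearer to 0 than that of the epithelial list. In fits that lacked 1 library, rises numbered 5 without ABTr3 replicate 1, 5 without ABTr3 replicate 2, 8 without PEO1 replicate 1 and 5 without PEO1 replicate 2. ZEB1, at chr10:31608101-31818742 (hg19), had 44.6 and 51.1 CPM in ABTr3, against 2.13 and 2.79 CPM in PEO1 (log2 fold change 4.29 ± 0.28 by SE, edgeR adjusted p = 0.0010). ZEB2 had 36.7 and 29.2 CPM in the ABTr3 libraries, against 0.694 and 1.39 CPM in the PEO1 libraries (log2 fold change 5.0 ± 0.53 by SE, edgeR adjusted p = 0.0042). CDH2, which codes for N-cadherin, had 80.6 and 79.4 CPM in ABTr3, against 6.05 and 11.8 CPM in PEO1 (log2 fold change 3.17 ± 0.34 by SE, edgeR adjusted p = 0.0042). The intermediate filament gene VIM had 37.9 and 89.8 CPM in ABTr3, against 2.60 and 0.735 CPM in PEO1 (log2 fold change 5.22 ± 0.65 by SE, edgeR adjusted p = 0.0053). In all 4 genes the lower ABTr3 library was more than 5 times the higher PEO1 library. The collagen cross-linking enzyme LOXL2 rose by 4.36 on the log2 scale, SNAI2 by 3.32 and PRRX1 by 2.62. TWIST1 was called with the block alone (1.32), and the matricellular gene SPARC was lower with the block (-1.50, adjusted p = 0.018). Omitting a single library ended the call of SNAI2 and PRRX1 without ABTr3 replicate 1 (adjusted p of 0.079 to 0.13), and of SNAI2 and PRRX1 without ABTr3 replicate 2 (adjusted p of 0.073 to 0.17), and of SNAI2 and PRRX1 without PEO1 replicate 2 (adjusted p of 0.081 to 0.18). The calls of ZEB1, ZEB2, CDH2, VIM and LOXL2 held without any 1 of the 4 libraries.

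Receptors and substrates of cell adhesion changed in both directions. Of 25 integrin and laminin genes tested, 5 rose and 3 fell without the block, and 6 rose and 8 fell with it (median 0.02, range -0.15 to 0.05). ITGB3, the beta subunit of the vitronectin receptor, had 15.9 and 86.9 CPM in ABTr3, against 0.397 and 0.310 CPM in PEO1 (log2 fold change 7.15 ± 0.92 by SE, edgeR adjusted p = 0.0056). ITGB6, a beta subunit of epithelia, had 5.53 and 9.04 CPM in ABTr3, against 107 and 133 CPM in PEO1 (log2 fold change -4.05 ± 0.81 by SE, edgeR adjusted p = 0.025). LAMB3, a chain of the laminin of epithelial basement membranes, had 12.5 and 22.1 CPM in ABTr3, against 71.7 and 138 CPM in PEO1 (log2 fold change -2.60 ± 0.49 by SE, edgeR adjusted p = 0.021), and LAMA4 had 34.5 and 25.3 CPM in ABTr3, against 14.2 and 14.5 CPM in PEO1 (log2 fold change 1.06 ± 0.24 by SE, edgeR adjusted p = 0.035). ITGB3 and LAMA4 were thus higher in both ABTr3 libraries, and the epithelial ITGB6 and LAMB3 were lower in both. Leaving out 1 library ended the call of ITGB6, LAMB3 and LAMA4 without ABTr3 replicate 1 (adjusted p of 0.14 to 0.18), and of ITGB6, LAMB3 and LAMA4 without ABTr3 replicate 2 (adjusted p of 0.087 to 0.14), and of LAMA4 without PEO1 replicate 1 (adjusted p = 0.098), and of ITGB6, LAMB3 and LAMA4 without PEO1 replicate 2 (adjusted p of 0.082 to 0.14). The call of ITGB3 held without any 1 of the 4 libraries.

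Matrix genes rose where they were called without the block. Of 24 matrix proteases and inhibitors tested, 3 rose and 0 fell without the block, and 7 rose and 2 fell with it (median 1.26, range 0.84 to 1.41). Gelatinase A, encoded by MMP2, had 2.68 and 6.82 CPM in ABTr3, against 0.0248 and 0 CPM in PEO1 (log2 fold change 8.02 ± 1.28 by SE, edgeR adjusted p = 0.011). MMP2 had 1 read in all in PEO1, which gives a ratio of 285 and, from counting alone, a 95% interval of 50.9 to 11300. ADAMTS5, an aggrecan protease, had 2.41 and 0.975 CPM in ABTr3, against 0 and 0 CPM in PEO1 (log2 fold change 9.0 ± 1.45 by SE, edgeR adjusted p = 0.015), at least 40.7-fold higher against the floor of 3 counts. MMP7, an epithelial protease, was lower with the block (-5.13, adjusted p = 8.9e-04). Of 18 collagens tested, 3 rose and 0 fell without the block, and 9 rose and 1 fell with it (median 1.41, range 0.98 to 1.54). COL6A1 had 27.5 and 36 CPM in ABTr3, against 6.62 and 3.17 CPM in PEO1 (log2 fold change 2.69 ± 0.49 by SE, edgeR adjusted p = 0.018). COL13A1 had 1.03 and 0.975 CPM in ABTr3, against 0 and 0 CPM in PEO1, at least 22.3-fold higher, and COL4A5 had 30.7 and 33.9 CPM in ABTr3, against 13.6 and 13.7 CPM in PEO1. COL6A2 and COL6A3, the partner chains of COL6A1 in collagen VI, were called with the block alone (6.44 and 3.12). Calls lost without ABTr3 replicate 1 were those of ADAMTS5, COL6A1, COL13A1 and COL4A5. Without ABTr3 replicate 2 they were those of MMP2, ADAMTS5, COL6A1, COL13A1 and COL4A5. COL13A1 and COL4A5 lost their calls without PEO1 replicate 1, and MMP2, ADAMTS5, COL6A1, COL13A1 and COL4A5 without PEO1 replicate 2.

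Most tested secreted proteases of the kallikrein cluster on chromosome 19 fell. The highest log2 fold change among them was 5.09, in a member that was not called in either fit. Of 7 kallikreins tested, 0 rose and 5 fell without the block, and 0 rose and 5 fell with it (median -4.10, range -4.29 to -3.94). Counts of falls in fits lacking 1 library were 1 without ABTr3 replicate 1, 1 without ABTr3 replicate 2, 5 without PEO1 replicate 1 and 2 without PEO1 replicate 2. KLK6 had 15.7 and 13.9 CPM in the ABTr3 libraries, against 225 and 283 CPM in the PEO1 libraries (log2 fold change -4.10 ± 0.30 by SE, edgeR adjusted p = 0.0010), and the gene lies at chr19:51461887-51472929 (hg19). KLK5 had 1.21 and 1.39 CPM in the ABTr3 libraries, against 214 and 579 CPM in the PEO1 libraries (log2 fold change -8.26 ± 1.0 by SE, edgeR adjusted p = 0.0047). KLK8, KLK10 and KLK7 had log2 fold changes of -5.74, -5.16 and -3.36. All 5 are known products of ovarian carcinoma cells. With 1 library left out, calls were lost for KLK5, KLK8, KLK10 and KLK7 without ABTr3 replicate 1 (adjusted p of 0.055 to 0.13), and for KLK5, KLK8, KLK10 and KLK7 without ABTr3 replicate 2 (adjusted p of 0.069 to 0.15), and for KLK8, KLK10 and KLK7 without PEO1 replicate 2 (adjusted p of 0.053 to 0.086). The call of KLK6 held without any 1 of the 4 libraries.

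Genes of the serous lineage split. Of 10 tested, 1 rose and 1 fell without the block, and 1 rose and 2 fell with it (median -0.36, range -0.51 to 0.22, above 0 without PEO1 replicate 2). MUC16, which codes for the tumour antigen CA125, had 0.498 and 0 CPM in ABTr3, against 20.7 and 66.4 CPM in PEO1 (log2 fold change -7.32 ± 1.61 by SE, edgeR adjusted p = 0.033). MECOM, a transcription factor of the Müllerian lineage, had 25.1 and 21 CPM in ABTr3, against 0.422 and 0.387 CPM in PEO1 (log2 fold change 5.82 ± 0.64 by SE, edgeR adjusted p = 0.0042). WT1, a marker of serous carcinoma, was lower with the block (-2.13, adjusted p = 0.046). Of 13 estrogen response genes tested, 0 rose and 1 fell without the block, and 0 rose and 6 fell with it (median -1.43, range -1.78 to -0.43). That is 7.69% without and 46.2% with the block, against 7.37% and 22.6% of all tested genes. The gene called without the block was ESR1 itself, and MYB, PDZK1, FOXA1, GATA3 and IGFBP4 followed with the block at -2.75, -3.06, -1.36, -1.62 and -0.63. Among these genes, omission of 1 library ended the call of MUC16 without ABTr3 replicate 1 (adjusted p = 0.085), and of MUC16 without ABTr3 replicate 2 (adjusted p = 0.16), and of MUC16 without PEO1 replicate 2 (adjusted p = 0.13). The calls of MECOM and ESR1 held without any 1 of the 4 libraries.

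Inflammatory cytokines and chemokines rose. Of 27 genes of interleukin 1 and NF-kB inflammation tested, 7 rose and 1 fell without the block, and 13 rose and 2 fell with it (median 1.13, range 0.70 to 1.39). The count of rises without 1 library was 3 without ABTr3 replicate 1, 2 without ABTr3 replicate 2, 6 without PEO1 replicate 1 and 2 without PEO1 replicate 2. IL1A had 47.5 and 70 CPM in the ABTr3 libraries, against 0.496 and 0.735 CPM in the PEO1 libraries (log2 fold change 6.59 ± 0.61 by SE, edgeR adjusted p = 0.0024), so that both ligands of the interleukin 1 receptor were higher. The decoy receptor IL1R2, which traps these ligands, had 0.460 and 0.118 CPM in ABTr3, against 71.2 and 168 CPM in PEO1 (log2 fold change -8.60 ± 1.01 by SE, edgeR adjusted p = 0.0045). The neutrophil chemokines CXCL8, CXCL2 and CXCL3 rose by 4.17, 4.33 and 3.91 on the log2 scale and the cytokine TNF by 2.36. With the block CXCL1, CCL2, CSF3, TNFAIP3, IL11 and BIRC3 rose as well, by 4.17, 4.49, 6.34, 2.48, 1.61 and 1.17. LCN2, an iron-binding protein that NF-kB induces, went the other way with 0.574 and 4.52 CPM in ABTr3, against 73.4 and 550.0 CPM in PEO1 (with the block -6.96, adjusted p = 5.1e-05). The call was lost for CXCL8, CXCL2, CXCL3 and TNF without ABTr3 replicate 1 (adjusted p of 0.093 to 0.14), and for IL1R2, CXCL8, CXCL2, CXCL3 and TNF without ABTr3 replicate 2 (adjusted p of 0.056 to 0.12), and for CXCL2 and CXCL3 without PEO1 replicate 1 (adjusted p of 0.051 to 0.061), and for CXCL8, CXCL2, CXCL3 and TNF without PEO1 replicate 2 (adjusted p of 0.089 to 0.17). The call of IL1A held without any 1 of the 4 libraries.

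Among interferon response genes, IRF1 was the 1 call without the block. Of 35 tested, 0 rose and 1 fell without the block, and 2 rose and 11 fell with it (median -0.31, range -0.90 to -0.07), which is 2.86% without and 37.1% with the block, against 7.37% and 22.6% of all tested genes. The transcription factor IRF1 had 32.5 and 29.1 CPM in ABTr3, against 79.2 and 142 CPM in PEO1 (log2 fold change -1.84 ± 0.46 by SE, edgeR adjusted p = 0.047). With the block the antiviral genes RSAD2, IFI44L, OASL and IFIT2 were at -3.05, -2.08, -1.43 and -1.12, and IFI6 and the nuclease TREX1 were higher at 1.0 and 1.28. Of 18 antigen presentation genes tested, 0 rose and 3 fell without the block, and 1 rose and 5 fell with it (median -0.27, range -0.59 to -0.10). CIITA, the master regulator of class II genes, had 0.996 and 0.413 CPM in ABTr3, against 6.60 and 7.82 CPM in PEO1 (log2 fold change -3.33 ± 0.83 by SE, edgeR adjusted p = 0.048). The peptide trimming enzyme ERAP1 had 16.3 and 21.4 CPM in ABTr3, against 35.1 and 94 CPM in PEO1 (log2 fold change -1.78 ± 0.44 by SE, edgeR adjusted p = 0.046). The class II gene HLA-DRB1, which the table lists on several haplotype chromosomes, had a log2 fold change of -3.09 (edgeR adjusted p = 0.046), and HLA-DRA was lower with the block (-6.35, adjusted p = 0.032). Omitting a single library ended the call of IRF1, CIITA, ERAP1 and HLA-DRB1 without ABTr3 replicate 1 (adjusted p of 0.14 to 0.23), and of IRF1, CIITA, ERAP1 and HLA-DRB1 without ABTr3 replicate 2 (adjusted p of 0.17 to 0.23), and of CIITA and HLA-DRB1 without PEO1 replicate 1 (adjusted p of 0.071 to 0.086), and of IRF1, CIITA, ERAP1 and HLA-DRB1 without PEO1 replicate 2 (adjusted p of 0.13 to 0.22).

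Genes of secreted signals changed in both directions. Of 27 genes of TGF-beta and activin signalling tested, 2 rose and 4 fell without the block, and 4 rose and 4 fell with it. That is 22.2% without and 29.6% with the block, against 7.37% and 22.6% of all tested genes. INHBB, a subunit of activin B, had 2.05 and 0.650 CPM in ABTr3, against 321 and 909.9 CPM in PEO1 (log2 fold change -8.80 ± 1.01 by SE, edgeR adjusted p = 0.0044). SMAD7, the inhibitor of the pathway, had 6.38 and 4.34 CPM in ABTr3, against 30.4 and 43.6 CPM in PEO1 (log2 fold change -2.78 ± 0.43 by SE, edgeR adjusted p = 0.010). The latent TGF-beta binding proteins LTBP1 and LTBP2 had log2 fold changes of -4.84 and -2.12. The ligand TGFB1 rose by 1.88 and the receptor TGFBR2 by 1.05 on the log2 scale. Leaving out 1 library ended the call of SMAD7, LTBP1, LTBP2, TGFB1 and TGFBR2 without ABTr3 replicate 1 (adjusted p of 0.060 to 0.18), and of INHBB, SMAD7, LTBP1, LTBP2, TGFB1 and TGFBR2 without ABTr3 replicate 2 (adjusted p of 0.055 to 0.22), and of LTBP2 and TGFBR2 without PEO1 replicate 1 (adjusted p of 0.083 to 0.13), and of LTBP1, TGFB1 and TGFBR2 without PEO1 replicate 2 (adjusted p of 0.057 to 0.15).

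Of 26 Wnt pathway genes tested, 3 rose and 4 fell without the block, and 4 rose and 7 fell with it. That is 26.9% without and 42.3% with the block, against 7.37% and 22.6% of all tested genes. The secreted antagonist DKK1 had 129 and 121 CPM in ABTr3, against 12.9 and 6.27 CPM in PEO1 (log2 fold change 3.70 ± 0.60 by SE, edgeR adjusted p = 0.012). The ligand WNT7B had 32.7 and 55.5 CPM in ABTr3, against 316 and 424 CPM in PEO1 (log2 fold change -3.07 ± 0.60 by SE, edgeR adjusted p = 0.023), and WNT10A had 0.0383 and 0 CPM in ABTr3, against 5.95 and 12 CPM in PEO1 (log2 fold change -8.44 ± 1.26 by SE, edgeR adjusted p = 0.0088). The antagonists DKK3 and SFRP1 rose by 2.39 and 2.11 on the log2 scale, and RNF43, which removes Wnt receptors, had a log2 fold change of -4.18. WNT10A had 2 reads in all in ABTr3, which gives a ratio of PEO1 over ABTr3 of 358 and, from counting alone, a 95% interval of 98.6 to 2960. Thus 2 ligands fell and 3 secreted antagonists rose, while WNT5A was higher with the block (2.19, adjusted p = 0.0084). Calls lost without ABTr3 replicate 1 were those of DKK1, WNT7B, WNT10A, RNF43, DKK3 and SFRP1. The same genes lost their calls without ABTr3 replicate 2. Without PEO1 replicate 2 the calls of DKK1, WNT7B, RNF43, DKK3 and SFRP1 were lost.

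Of 20 receptor kinases tested, 2 rose and 4 fell without the block, and 3 rose and 6 fell with it. That is 30% without and 45% with the block, against 7.37% and 22.6% of all tested genes. FGFR1 had 118 and 85.9 CPM in ABTr3, against 9.32 and 2.90 CPM in PEO1 (log2 fold change 4.05 ± 0.64 by SE, edgeR adjusted p = 0.011). FGFR2, its epithelial relative, had 3.60 and 2.51 CPM in ABTr3, against 64.9 and 65.6 CPM in PEO1 (log2 fold change -4.41 ± 0.76 by SE, edgeR adjusted p = 0.015). ERBB3, a partner of ERBB2 in neuregulin signalling, had 10.5 and 18.9 CPM in ABTr3, against 137 and 252 CPM in PEO1 (log2 fold change -3.73 ± 0.75 by SE, edgeR adjusted p = 0.024). The fibroblast growth factor receptors thus changed in opposite directions with no overlap. IGF1R rose by 2.67 on the log2 scale, and ERBB2 and EPHB4 had log2 fold changes of -1.78 and -1.04. Among 12 insulin-like growth factor binding proteins, 1 rose and 1 fell without the block, and 2 rose and 2 fell with it, IGFBP2 with 12.6 and 38.4 CPM in ABTr3, against 0.620 and 0.310 CPM in PEO1 (log2 fold change 5.73 ± 0.67 by SE, edgeR adjusted p = 0.0045) and IGFBP5 in the opposite direction. Among 16 YAP and TEAD genes, 0 rose and 1 fell without the block (6.25%), and 0 rose and 5 fell with it (31.2%). VGLL1 was the gene called without the block, and AJUBA, VGLL4, TEAD3 and TEAD1 lay at -1.68, -0.83, -0.92 and -0.56 with the block. With 1 library left out, calls were lost for FGFR1, FGFR2, ERBB3, IGF1R, ERBB2 and EPHB4 without ABTr3 replicate 1 (adjusted p of 0.060 to 0.17), and for FGFR1, FGFR2, ERBB3, IGF1R, ERBB2 and EPHB4 without ABTr3 replicate 2 (adjusted p of 0.064 to 0.14), and for IGF1R without PEO1 replicate 1 (adjusted p = 0.064), and for FGFR2, ERBB3, ERBB2 and EPHB4 without PEO1 replicate 2 (adjusted p of 0.052 to 0.13). The call of IGFBP2 held without any 1 of the 4 libraries.

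**Figure D3:**
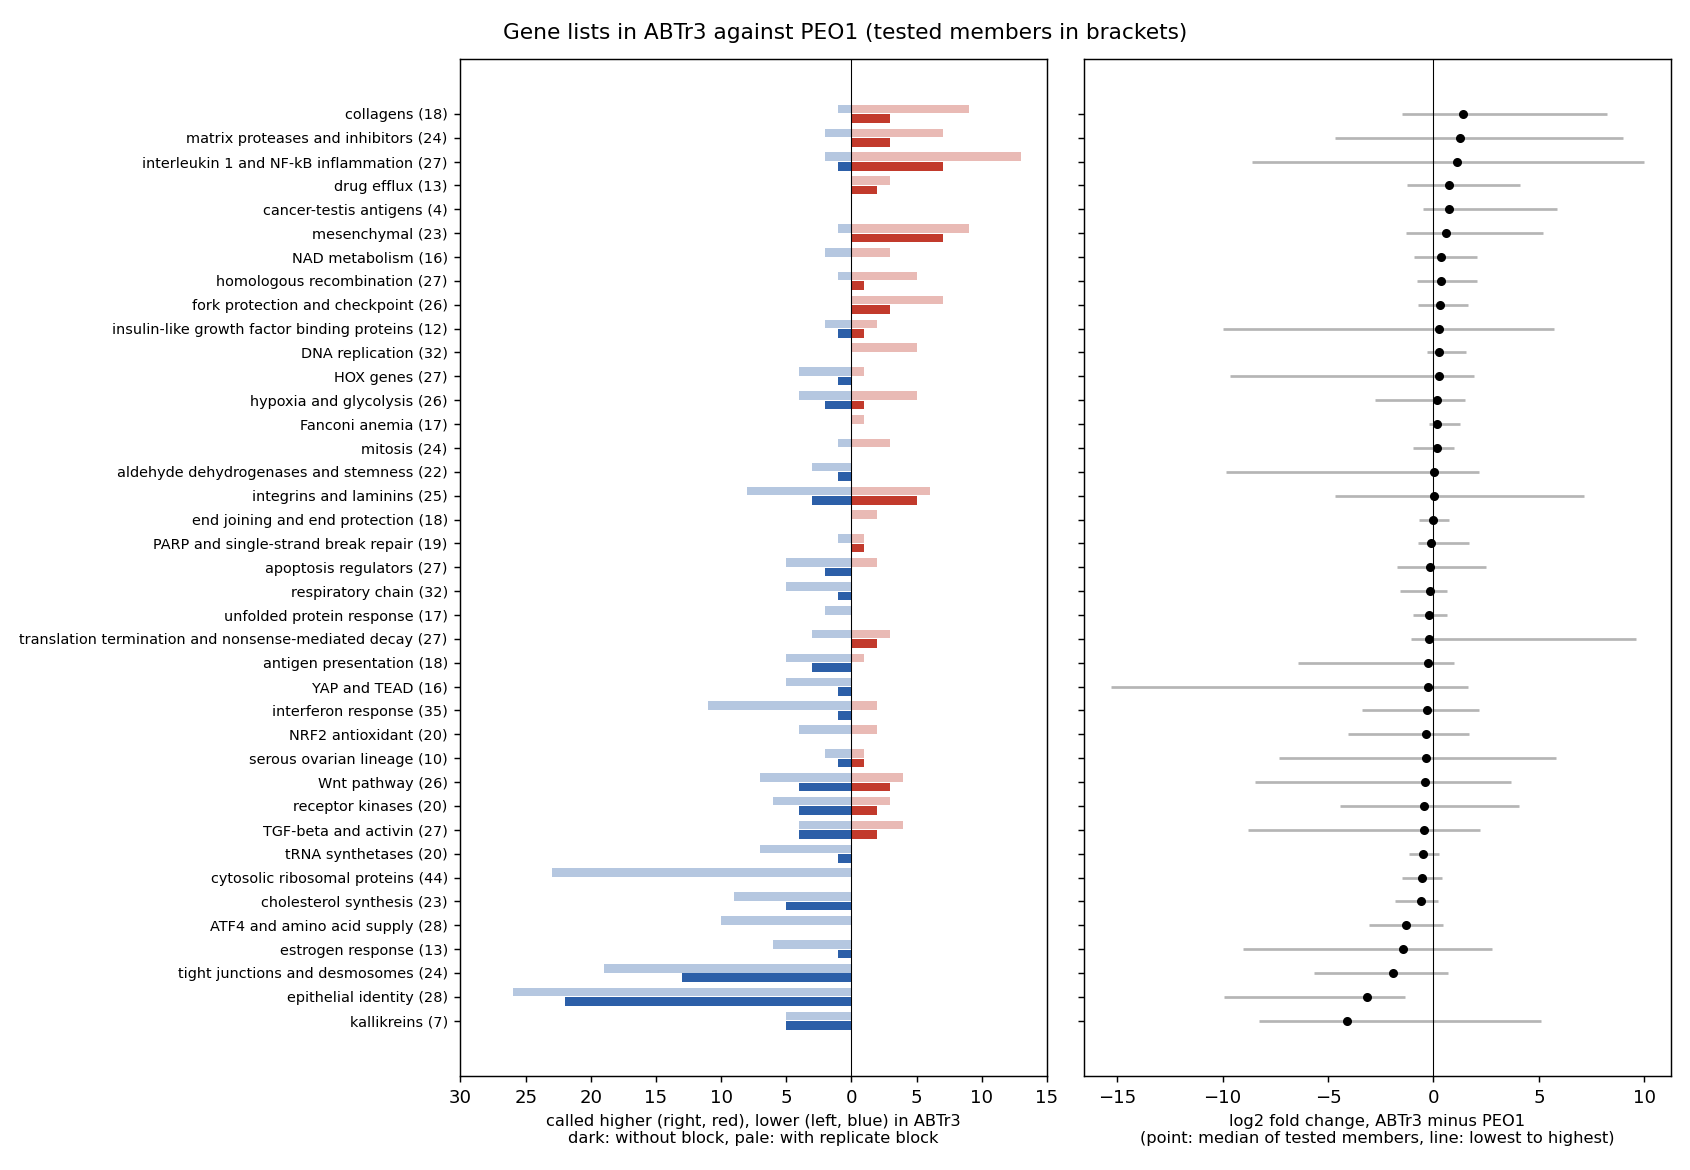
For gene lists (tested members in brackets), the left panel gives the number of members called lower (left) and higher (right) in ABTr3, dark without and pale with the replicate block, and the right panel the median log2 fold change of ABTr3 over PEO1 as a point with a line from the lowest to the highest member. Epithelial identity (0 higher and 22 lower without the block) and kallikreins (median -4.10) lie at the low end and collagens (median 1.41) at the high end.

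BRCA2 RNA differed in level between the numbered pairs. BRCA2 had 76.9 and 28.3 CPM in the ABTr3 libraries, against 19 and 5.80 CPM in the PEO1 libraries, and the gene lies at chr13:32889617-32973809 (hg19). Each ABTr3 library was at least 4 times the PEO1 library of the same number, and both ABTr3 libraries were above both PEO1 libraries. Without the block the gene was not called (log2 fold change 2.08 ± 0.95 by SE, edgeR adjusted p = 0.24), and with it the log2 fold change was 2.15, adjusted p = 8.8e-04. The RNA level says nothing of whether the protein works. BRCA1 had 152 and 109 CPM in the ABTr3 libraries, against 194 and 117 CPM in the PEO1 libraries, and its log2 fold change of -0.26 was not called (adjusted p = 0.86, with the block 0.61). The drug target PARP1 had 208 and 159 CPM in ABTr3, against 161 and 76 CPM in PEO1 (log2 fold change 0.63 ± 0.50 by SE, edgeR adjusted p = 0.51), and with the block 0.72, adjusted p = 0.065. TP53BP1, which shields broken ends from resection, had 85.9 and 97.3 CPM in ABTr3, against 89.7 and 69.4 CPM in PEO1 and a log2 fold change of 0.20 (adjusted p = 0.65, with the block 0.49).

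Of 27 homologous recombination genes tested, 1 rose and 0 fell without the block, and 5 rose and 1 fell with it (median 0.35, range 0.04 to 0.63). SFR1, a cofactor of strand exchange, had 27.6 and 38.6 CPM in ABTr3, against 11.4 and 8.36 CPM in PEO1 (log2 fold change 1.74 ± 0.35 by SE, edgeR adjusted p = 0.024). With the block ATM, SWI5 and MRE11A were at 0.96, 0.93 and 0.65, and RAD50 was lower at -0.77. The shares called in this list were 3.70% without and 22.2% with the block, against 7.37% and 22.6% of all tested genes. Of 18 genes of end joining and end protection, 0 passed edgeR without the block (3 at an unadjusted p under 0.05, 0 by DESeq2 and 0 by limma-voom), and 2 rose and 0 fell with it, namely CTC1 and MAD2L2 (0.72 and 0.73, adjusted p = 0.031 and 0.045). MAD2L2 is a shieldin subunit that blocks resection, and CTC1 belongs to the complex that fills in such ends. Of 19 genes of PARP and single-strand break repair, 1 rose and 0 fell without the block, and 1 rose and 1 fell with it. APLF, a factor that binds poly(ADP-ribose), had 7.62 and 15.8 CPM in ABTr3, against 3.67 and 3.56 CPM in PEO1 (log2 fold change 1.69 ± 0.37 by SE, edgeR adjusted p = 0.031), and XRCC1 was lower with the block (-0.72). Among these genes, omission of 1 library ended the call of SFR1 without ABTr3 replicate 1 (adjusted p = 0.070), and of SFR1 and APLF without ABTr3 replicate 2 (adjusted p of 0.15 to 0.16), and of APLF without PEO1 replicate 1 (adjusted p = 0.079), and of SFR1 and APLF without PEO1 replicate 2 (adjusted p = 0.14).

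Among checkpoint and fork genes, HUS1, RPA2 and ETAA1 rose. Of 26 tested, 3 rose and 0 fell without the block, and 7 rose and 0 fell with it (median 0.32, range -0.0023 to 0.71). The shares of 11.5% without and 26.9% with the block stood against 7.37% and 22.6% of all tested genes, and the median was near 0 without PEO1 replicate 2. HUS1, of the checkpoint clamp, had 74.6 and 74.8 CPM in ABTr3, against 35.5 and 27 CPM in PEO1 (log2 fold change 1.26 ± 0.27 by SE, edgeR adjusted p = 0.030). RPA2, which binds single-stranded DNA, had 71.1 and 84.8 CPM in ABTr3, against 39.5 and 32.3 CPM in PEO1 (log2 fold change 1.12 ± 0.25 by SE, edgeR adjusted p = 0.037), and ETAA1, an activator of ATR, had 47.6 and 52.1 CPM in ABTr3, against 25.1 and 20.7 CPM in PEO1 (log2 fold change 1.12 ± 0.26 by SE, edgeR adjusted p = 0.038). In each of the 3 the groups did not overlap and ABTr3 was about 2-fold higher. SLFN11, which blocks stressed replication forks and is known to sensitize cells to PARP inhibitors, had 148 and 113 CPM in ABTr3, against 62.6 and 62.8 CPM in PEO1 (log2 fold change 1.06 ± 0.31 by SE, edgeR adjusted p = 0.076), and with the block 1.03, adjusted p = 0.0052. Of 17 Fanconi anemia genes, 0 passed edgeR without the block (0 at an unadjusted p under 0.05, 0 by DESeq2 and 0 by limma-voom), and 1 rose and 0 fell with it, the gene called being FANCA with 122 and 52.7 CPM in ABTr3, against 50.1 and 22.8 CPM in PEO1 (with the block 1.24, adjusted p = 0.0074). The call was lost for HUS1, RPA2 and ETAA1 without ABTr3 replicate 1 (adjusted p of 0.11 to 0.13), and for HUS1, RPA2 and ETAA1 without ABTr3 replicate 2 (adjusted p of 0.15 to 0.18), and for RPA2 and ETAA1 without PEO1 replicate 1 (adjusted p of 0.063 to 0.066), and for HUS1, RPA2 and ETAA1 without PEO1 replicate 2 (adjusted p of 0.17 to 0.18).

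Replication and mitosis genes were called with the block alone. Of 32 DNA replication genes, 0 passed edgeR without the block (2 at an unadjusted p under 0.05, 0 by DESeq2 and 0 by limma-voom), and 5 rose and 0 fell with it (median 0.28, range -0.20 to 0.91). The 15.6% called with the block was below the 22.6% of all tested genes, and the median was below 0 without PEO1 replicate 2 (-0.20) or ABTr3 replicate 1 (-0.06). ORC6, of the origin recognition complex, had 103 and 84.5 CPM in ABTr3, against 42 and 22.2 CPM in PEO1 (with the block 1.64, adjusted p = 0.0020). TYMS, which makes thymidylate, had 105 and 87.9 CPM in ABTr3, against 47.8 and 30.4 CPM in PEO1 (with the block 1.36, adjusted p = 0.0060), and RFC4 and GINS3 were at 1.06 and 1.01. Of 24 mitosis genes, 0 passed edgeR without the block (1 at an unadjusted p under 0.05, 0 by DESeq2 and 0 by limma-voom), and 3 rose and 1 fell with it. The 16.7% of mitosis genes called with the block was also below the 22.6% of all tested genes. BUB1B, AURKB and NDC80 were higher (1.09, 1.03 and 0.92 with the block) and KIF20A lower (-0.86). ORC6 and TYMS were more than 2 times higher in both pairs, and within each group their levels were lower in replicate 2.

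**Figure D4:**
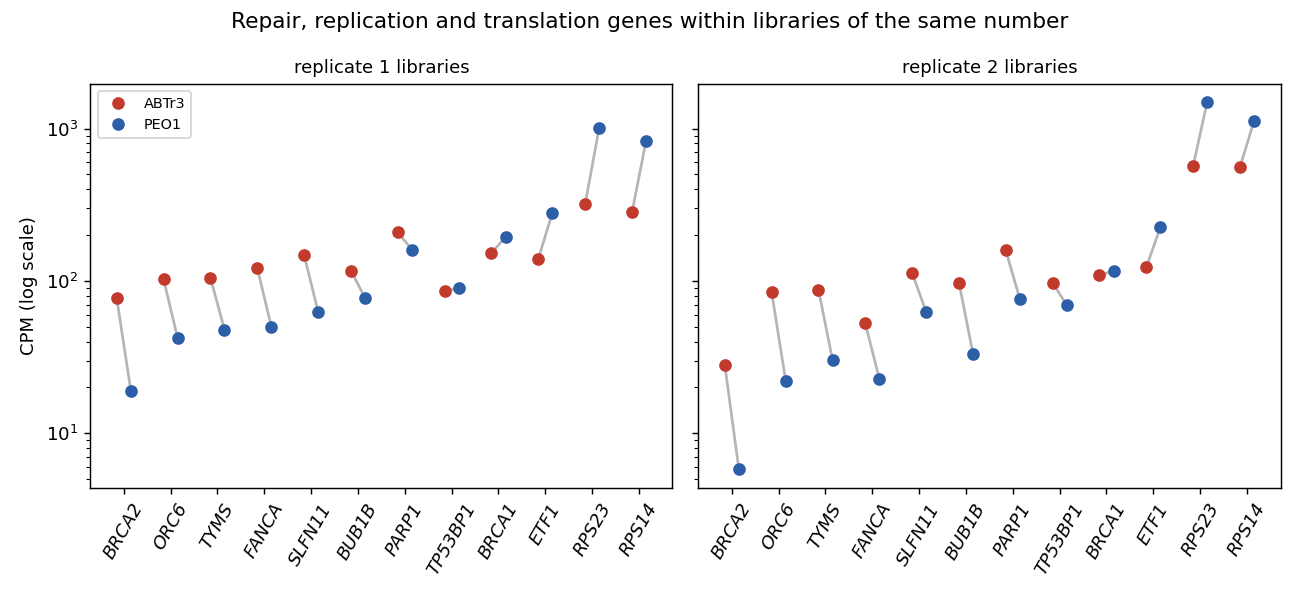
CPM on a log axis of 12 genes in the replicate 1 libraries (left) and the replicate 2 libraries (right), with ABTr3 in red joined to PEO1 in blue. BRCA2 was higher in ABTr3 in both pairs (76.9 against 19.0 and 28.3 against 5.80 CPM), and both of its levels were lower in replicate 2.

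Among drug transporters, ABCA1 and ABCA3 rose. Of 13 efflux genes, 2 rose and 0 fell without the block, and 3 rose and 0 fell with it (median 0.75, range 0.70 to 0.90), and the 23.1% called with the block was near the 22.6% of all tested genes. The cholesterol exporter ABCA1 had 58.4 and 62.5 CPM in ABTr3, against 8.31 and 8.51 CPM in PEO1 (log2 fold change 2.85 ± 0.39 by SE, edgeR adjusted p = 0.0069), and the lipid transporter ABCA3 had 32.6 and 32.3 CPM in ABTr3, against 13.7 and 14.5 CPM in PEO1 (log2 fold change 1.20 ± 0.24 by SE, edgeR adjusted p = 0.023). ABCB1, the P-glycoprotein that exports several PARP inhibitors, had 0.996 and 0.473 CPM in ABTr3, against 0.198 and 0.387 CPM in PEO1 and was not called (adjusted p = 0.26, with the block 0.18). Of 27 genes of translation termination and nonsense-mediated decay, 2 rose and 0 fell without the block, and 3 rose and 3 fell with it. These shares of 7.41% without and 22.2% with the block were near the 7.37% and 22.6% of all tested genes. EIF5A2 had 56.4 and 56.4 CPM in ABTr3, against 26.8 and 15.7 CPM in PEO1 (log2 fold change 1.41 ± 0.30 by SE, edgeR adjusted p = 0.029). The other rise was EEF1A2, which the list holds although it is a factor of elongation, not of termination or decay. The release factor ETF1, on chromosome 5, had 139.6 and 123 CPM in ABTr3, against 281 and 225 CPM in PEO1 (log2 fold change -0.94 ± 0.30 by SE, edgeR adjusted p = 0.098), and with the block -0.94, adjusted p = 0.0054. Omitting a single library ended the call of ABCA3 and EIF5A2 without ABTr3 replicate 1 (adjusted p of 0.10 to 0.12), and of ABCA1, ABCA3 and EIF5A2 without ABTr3 replicate 2 (adjusted p of 0.061 to 0.14), and of ABCA3 without PEO1 replicate 1 (adjusted p = 0.066), and of ABCA3 and EIF5A2 without PEO1 replicate 2 (adjusted p of 0.096 to 0.13). The call of EEF1A2 held without any 1 of the 4 libraries.

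Genes of amino acid supply and protein synthesis were lower, mostly with the block. Of 28 ATF4 and amino acid supply genes, 0 passed edgeR without the block (11 at an unadjusted p under 0.05, 10 by DESeq2 and 0 by limma-voom), and 0 rose and 10 fell with it (median -1.31, range -2.32 to -0.21). The value nearest to 0 is that without PEO1 replicate 2, and the lowest that without PEO1 replicate 1. The amino acid transporter SLC7A5 had 383 and 169 CPM in ABTr3, against 998 and 2024 CPM in PEO1 (with the block -2.72, adjusted p = 0.0041), and the stress gene DDIT4 had 41 and 47.6 CPM in ABTr3, against 160.3 and 578 CPM in PEO1 (with the block -2.74, adjusted p = 0.0058). CBS and NUPR1 were at -1.91 and -2.50 in that fit. Of 20 tRNA synthetases, 0 rose and 1 fell without the block, and 0 rose and 7 fell with it, NARS with 162 and 189 CPM in ABTr3, against 322 and 464 CPM in PEO1 (log2 fold change -1.16 ± 0.27 by SE, edgeR adjusted p = 0.040). Of 44 cytosolic ribosomal proteins, 0 passed edgeR without the block (3 at an unadjusted p under 0.05, 2 by DESeq2 and 0 by limma-voom), and 0 rose and 23 fell with it (median -0.56, range -0.94 to -0.28), and reads of these genes can be shared with processed copies. RPS23, on chromosome 5, had 318 and 569 CPM in ABTr3, against 1016 and 1496 CPM in PEO1 (with the block -1.53, adjusted p = 4.0e-04). RPS14, on the same chromosome, had 282 and 560.0 CPM in ABTr3, against 828 and 1120 CPM in PEO1 (with the block -1.29, adjusted p = 0.0028). RPS12 and RPS6 were at -1.09 and -1.41. Of 17 unfolded protein response genes, 0 passed edgeR without the block (1 at an unadjusted p under 0.05, 1 by DESeq2 and 0 by limma-voom), and 0 rose and 2 fell with it, namely ATF6 and SEL1L (-0.86 and -0.68). Leaving out 1 library ended the call of NARS without ABTr3 replicate 1 (adjusted p = 0.21), and of NARS without ABTr3 replicate 2 (adjusted p = 0.16), and of NARS without PEO1 replicate 2 (adjusted p = 0.18).

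Genes of cholesterol synthesis fell at early and later steps. Of 23 genes, 0 rose and 5 fell without the block, and 0 rose and 9 fell with it (median -0.61, range -1.01 to -0.32). With single libraries left out it was 0 without ABTr3 replicate 1, 0 without ABTr3 replicate 2, 5 without PEO1 replicate 1 and 0 without PEO1 replicate 2. HMGCS1, which condenses acetyl groups at an early step, had 174 and 176 CPM in ABTr3, against 433 and 815 CPM in PEO1 (log2 fold change -1.83 ± 0.32 by SE, edgeR adjusted p = 0.015). CYP51A1 and LSS, of later steps, had log2 fold changes of -1.39 and -1.03. All 3 were lower in both ABTr3 libraries than in either PEO1 library, and HMGCS1 lies on chromosome 5. HMGCS1, CYP51A1 and LSS lost their calls without ABTr3 replicate 1, without ABTr3 replicate 2 and without PEO1 replicate 2.

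Other metabolic lists had smaller shares of calls than cholesterol synthesis (21.7% without and 39.1% with the block). Hypoxia and glycolysis had 11.5% and 34.6%, and the respiratory chain 3.12% and 15.6%. NAD metabolism had 0% and 31.2%, and NRF2 antioxidant genes 0% and 30%. All tested genes had 7.37% and 22.6%. Of 26 hypoxia and glycolysis genes, 1 rose and 2 fell without the block, and 5 rose and 4 fell with it. EGLN3, an oxygen sensor, had 3.96 and 1.62 CPM in ABTr3, against 16.4 and 22.1 CPM in PEO1 (log2 fold change -2.78 ± 0.50 by SE, edgeR adjusted p = 0.017), ENO2 had 60.3 and 53.1 CPM in ABTr3, against 26.3 and 13.3 CPM in PEO1 (log2 fold change 1.52 ± 0.35 by SE, edgeR adjusted p = 0.037) and GAPDH had 1849 and 2287 CPM in ABTr3, against 4876 and 4396 CPM in PEO1 (log2 fold change -1.16 ± 0.27 by SE, edgeR adjusted p = 0.040). Of 32 respiratory chain genes, 0 rose and 1 fell without the block, and 0 rose and 5 fell with it, ATP5A1 on chromosome 18 with 180.2 and 245 CPM in ABTr3, against 756 and 520.0 CPM in PEO1 (log2 fold change -1.59 ± 0.28 by SE, edgeR adjusted p = 0.017). Of 16 genes of NAD metabolism, the substrate of PARP enzymes, 0 passed edgeR without the block (4 at an unadjusted p under 0.05, 2 by DESeq2 and 0 by limma-voom), and 3 rose and 2 fell with it. QPRT, which makes NAD from tryptophan, and NMNAT3 were higher with the block (1.70 and 1.06), and NMNAT2 and NNT were lower (-0.88 and -0.70). Of 20 NRF2 antioxidant genes, 0 passed edgeR without the block (6 at an unadjusted p under 0.05, 5 by DESeq2 and 0 by limma-voom), and 2 rose and 4 fell with it. OSGIN1 was higher with the block at 1.42, and AKR1B10, TKT and GSR were lower at -3.46, -0.91 and -0.61. With 1 library left out, calls were lost for ENO2, GAPDH and ATP5A1 without ABTr3 replicate 1 (adjusted p of 0.12 to 0.19), and for EGLN3, ENO2, GAPDH and ATP5A1 without ABTr3 replicate 2 (adjusted p of 0.082 to 0.14), and for GAPDH without PEO1 replicate 1 (adjusted p = 0.074), and for EGLN3, ENO2 and GAPDH without PEO1 replicate 2 (adjusted p of 0.073 to 0.15).

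Lists of cell death, stemness and patterning genes were called at about the rate of all tested genes (7.37% without and 22.6% with the block) or below it. For apoptosis regulators the shares were 7.41% without and 25.9% with the block. They were 4.55% and 13.6% for aldehyde dehydrogenase and stemness genes, and 3.70% and 18.5% for HOX genes. Of 27 apoptosis regulators, 0 rose and 2 fell without the block, and 2 rose and 5 fell with it. The pro-apoptotic gene BOK had 37.8 and 41.1 CPM in ABTr3, against 92.3 and 87.1 CPM in PEO1 (log2 fold change -1.18 ± 0.26 by SE, edgeR adjusted p = 0.035). BID, also pro-apoptotic, had 68 and 67.8 CPM in ABTr3, against 133 and 134 CPM in PEO1 (log2 fold change -0.97 ± 0.24 by SE, edgeR adjusted p = 0.048). Of 22 aldehyde dehydrogenase and stemness genes, 0 rose and 1 fell without the block, and 0 rose and 3 fell with it, ALDH3B2 being the fall without the block. Of 27 HOX genes, 0 rose and 1 fell without the block, and 1 rose and 4 fell with it, and HOXC10 had 0 and 0 CPM in ABTr3, against 1.41 and 3.95 CPM in PEO1, at least 68.9-fold lower against the floor (edgeR adjusted p = 0.039). Of 4 cancer-testis antigens, 0 passed edgeR without the block (0 at an unadjusted p under 0.05, 0 by DESeq2 and 0 by limma-voom), and 0 rose and 0 fell with it. Among these genes, omission of 1 library ended the call of BOK, BID and HOXC10 without ABTr3 replicate 1 (adjusted p of 0.17 to 0.20), and of BOK, BID and HOXC10 without ABTr3 replicate 2 (adjusted p of 0.16 to 0.20), and of BOK and BID without PEO1 replicate 1 (adjusted p of 0.075 to 0.086), and of BOK, BID and HOXC10 without PEO1 replicate 2 (adjusted p of 0.11 to 0.17).

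Markers of other cell types were read for the whole of each list. In bulk RNA, fewer cells of a type and less RNA per cell cannot be told apart. The summed level of 12 epithelial markers was 3210 and 3490 CPM in ABTr3, against 10500 and 17100 CPM in PEO1, and 0 rose and 8 fell without the block. Leukocyte markers summed to 220 and 241 CPM in ABTr3, against 47.6 and 61.1 CPM in PEO1, and 3 of 7 tested rose, namely CD68, LCP1 and HCLS1. CD68 alone made up 122 and 140 CPM of the ABTr3 sums, and 31.2 and 34.1 CPM of those of PEO1. PTPRC had 0.0383 and 0.236 CPM in ABTr3, against 0 and 0.155 CPM in PEO1, and SPI1 had 0 and 0 CPM in ABTr3. The monocyte marker CD14 went the other way, with 2.13 and 4.67 CPM in ABTr3, against 8.46 and 18.3 CPM in PEO1 (with the block -1.99, adjusted p = 0.0054). The lineage markers CD3E, CD4, MS4A1 and FCGR3A had no read in either group. Endothelial markers summed to 14.6 and 22.4 CPM in ABTr3, against 24.4 and 65.4 CPM in PEO1. Of 9 tested, FLI1 and TIE1 rose, and CDH5 was lower with the block (-7.07). TIE1 had 0.613 and 5.08 CPM in ABTr3, and with these libraries pooled it was at least 52.3-fold higher against the floor. Fibroblast markers summed to 141 and 184 CPM in ABTr3, against 181 and 99.2 CPM in PEO1. Most of this was THY1, with 134 and 171 CPM in ABTr3, against 168 and 80.4 CPM in PEO1. The collagens COL1A2 and COL3A1, DCN and LUM had no read, and of 5 tested, 0 passed edgeR without the block (2 at an unadjusted p under 0.05, 2 by DESeq2 and 0 by limma-voom), and 1 rose and 1 fell with it. ACTA2 was then higher and FAP lower (1.66 and -2.69). Mesothelial markers summed to 114 and 147 CPM in ABTr3, against 103 and 225 CPM in PEO1, and of 6 tested LRRN4 rose and UPK3B fell (4.34 and -3.95). The call was lost for CD68, LCP1 and LRRN4 without ABTr3 replicate 1 (adjusted p of 0.054 to 0.14), and for CD68, LCP1, FLI1, TIE1, LRRN4 and UPK3B without ABTr3 replicate 2 (adjusted p of 0.053 to 0.14), and for LCP1 and TIE1 without PEO1 replicate 1 (adjusted p of 0.057 to 0.065), and for CD68, LCP1 and TIE1 without PEO1 replicate 2 (adjusted p of 0.062 to 0.19). The call of HCLS1 held without any 1 of the 4 libraries.

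The block added 2506 calls, 1236 higher and 1270 lower in ABTr3. The 6 with the largest changes were all lower and do not stand for the rest. S100A9 had 0.421 and 3.31 CPM in the ABTr3 libraries, against 115 and 161 CPM in the PEO1 libraries (with the block -7.27, adjusted p = 6.3e-04, without it adjusted p = 0.099). S100A9 is a calcium-binding alarmin. PRSS37 had 0 and 0 CPM in ABTr3, against 1.09 and 41.3 CPM in PEO1 (without the block adjusted p = 0.055). With both PEO1 libraries pooled it was at least 482-fold lower against the floor, and PEO1 replicate 1 alone would give a smaller fold. The endothelial cadherin CDH5, the myoglobin gene MB and the long noncoding LINC01133 were at -7.07, -6.94 and -6.29 with the block (adjusted p = 5.0e-04, 0.0045 and 1.4e-04), and LCN2 is given above. All 6 were lower in both ABTr3 libraries than in either PEO1 library. With the block the biological coefficient of variation was 0.234, against 0.368 without, and the deviations of the ABTr3 and PEO1 libraries of the same number correlated at 0.28 across genes. In 169 of the calls with the block the CPM of the groups overlapped, and in 0 of the calls without it.

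Calls were spread unevenly over the chromosomes. With the block 205 of 775 tested genes on chromosome 5 were lower (26.5%, against 11.6% of all tested genes) and 42 were higher, with a median log2 fold change of -0.447. On chromosome 18, 74 of 246 were lower (30.1%) and 30 higher. On chromosome 16, 144 of 728 were higher (19.8%, against 11% of all tested genes) and 40 lower, and on chromosomes 20 and X 18.7% and 17.6% were higher. In windows of 10 Mb with at least 20 tested genes, 267 in all, medians ran from -1.25 to 0.849. The lowest was at chr18:70000001-80000000 (hg19), where 18 of 26 genes were lower and 0 higher with the block. The highest was on the same chromosome at chr18:1-10000000, where 18 of 45 were higher and 1 lower. On chromosome 16, 46 of 88 genes at chr16:80000001-90000000 were higher, with a median of 0.84. On chromosome 5, of 9 such windows between 60 Mb and 160 Mb, 8 had medians of -0.759 to -0.596, and the window at 90 Mb to 100 Mb had -0.246. Most of these shifts from PEO1 were shared with the other clones. Against the mean of ABTr1, ABTr2 and ABTr4, the medians were 0.0116 at chr18:70000001-80000000 and 0.00877 at chr16:80000001-90000000. They were -0.0737 to 0.087 in the 9 windows of chromosome 5, and 0.256 at chr18:1-10000000. DNA copy number was not measured, and its part in these values was not tested.

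**Figure D5:**
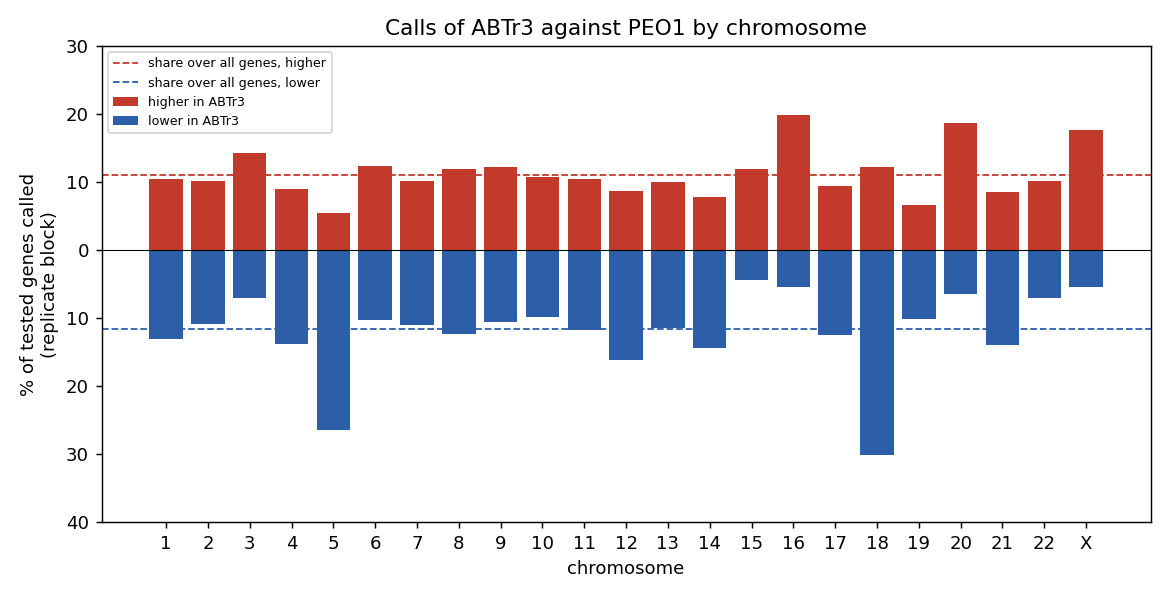
Percent of tested genes on each chromosome that were called higher (red, upward) or lower (blue, downward) in ABTr3 than in PEO1 with the replicate block, with dashed lines at the share over all tested genes (11% higher and 11.6% lower). Chromosomes 5 (26.5% lower) and 18 (30.1% lower) and chromosomes 16, 20 and X (19.8%, 18.7% and 17.6% higher) stand out from the lines.

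Few genes were called between ABTr3 and the other clones. Against the mean of ABTr1, ABTr2 and ABTr4, 0 genes passed edgeR's test without the block, with 671 at an unadjusted p under 0.05 and 75 by DESeq2, and 34 passed with the block (0.206%), 16 higher and 18 lower. These clones share with ABTr3 the parental line and the drug exposure. For the largest changes against PEO1 the clones went the same way, with VGLL1 at 0 CPM in ABTr3 and at 0.0283, 0.0756 and 0.0215 CPM in ABTr1, ABTr2 and ABTr4. IL1B averaged 241 CPM in ABTr3, against 85.1, 194 and 115 CPM in ABTr1, ABTr2 and ABTr4. Its difference from their mean was 1.39 on the log2 scale with the block (adjusted p = 0.19).

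The lowest windows of ABTr3 against the other clones lay side by side at the start of chromosome 9, a place noticed after the values were seen. At chr9:1-10000000 (hg19) 35 of 36 tested genes and at chr9:10000001-20000000 19 of 21 were lower than the mean of the other clones, against 48.2% of all tested genes. The window medians were -0.95 and -0.938, the third lowest of the 267 windows was -0.585 and the highest 0.453. Over the 57 genes of both windows, the median log2 ratio of ABTr3 was -0.978 to ABTr1, -0.702 to ABTr2 and -0.895 to ABTr4. Against PEO1 the median was -0.513, with -0.552 in the replicate 1 pair and -0.498 in the replicate 2 pair.

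Single genes of the stretch were seldom called against the other clones. Against PEO1, 7 of the 57 were lower and 0 higher without the block, and 19 were lower and 3 higher with it. Over all tested genes 3.89% were lower without the block and 11.6% with it. With the block RFX3, a factor of ciliated cells, and SNAPC3, of small nuclear RNA transcription, passed against the other clones, and without the block 0 of the 57 did in edgeR. At an unadjusted p under 0.05 there were 28 of 57 without the block, all lower in ABTr3, against 671 of all 16490 tested genes, and DESeq2 called 9 and limma-voom 0. RFX3 had 4.86 and 7.12 CPM in ABTr3, and the other clones averaged 18.3 CPM (log2 difference -1.53 with the block, adjusted p = 0.041). SNAPC3 had 18.5 and 20.7 CPM in ABTr3, against a mean of 46.2 CPM in the other clones (log2 difference -1.24, adjusted p = 0.023). The stretch also holds JAK2, the kinase of cytokine receptors, and CD274, which codes for the checkpoint ligand PD-L1. JAK2 had 4.58 and 5.76 CPM in ABTr3, and the other clones averaged 11.7 CPM. PEO1 had 10.2 and 16.1 CPM of JAK2. Against PEO1, JAK2 was lower with the block (log2 fold change -1.35, edgeR adjusted p = 0.017) and not called without it (adjusted p = 0.061). CD274 had 9.08 and 10 CPM in ABTr3, against 23.2, 20.8 and 20.2 CPM on average in ABTr1, ABTr2 and ABTr4. Neither passed against the other clones with the block (adjusted p = 0.14 and 0.37). Against PEO1, CD274 was not called (log2 fold change 0.43, edgeR adjusted p = 0.81), and its PEO1 levels of 11 and 3.10 CPM lay on both sides of those of ABTr3.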

How the data were processed

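Polyadenylated RNA was sequenced from an unstranded kit, per the labels' protocols. Per the submitters' processing notes, TopHat2 2.0.14, featureCounts 1.4.6 of Subread and hg19 were used, and the authors deposited raw counts per gene. How strand and multiply matching reads were treated is not given in the sources used here, so antisense and overlapping genes and close paralogs are uncertain. The table held 28 symbols turned into dates, 2 repeated symbols and 326 genes on several chromosomes, which the naming rule left out of its largest changes. The design text speaks of 15 samples in 3 experiments, and 10 libraries are analysed here.

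The filter of edgeR 4.0.16 left 16490 genes. TMM factors and quasi-likelihood tests were used on group means, with 5 residual degrees of freedom, and p-values were adjusted by Benjamini-Hochberg across the whole set of tested genes. Log2 fold changes come from this fit. Their SE was worked back from the test, as the absolute log2 fold change divided by the square root of its F statistic. The replicate block was an alternative with 4 residual degrees of freedom. Deviations of libraries with the same number correlated at 0.28 to 0.731 in the 10 pairs of groups, all above the set 0.1. Further alternatives were DESeq2 1.42.0, limma-voom (limma 3.58.1), RLE factors, no filter, only the ABTr3 and PEO1 libraries, and leaving out each of these libraries. Pair ratios used a pseudocount of 0.1 CPM. For a gene with no read in a group, the log2 fold change and its SE are not a measured size. The fold was then bounded with 3 counts summed over that group's libraries as the floor. The reads of the other group were pooled over its libraries for this bound. For 1 to 3 reads the ratio of CPM has an exact 95% interval for counting error only. The fit was tested on simulated data. Software was R 4.3.3, matplotlib 3.10.9 and Python 3.11.15.

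The rule named the 12 largest rises and 12 largest falls called in both fits among genes whose higher group averaged 5 CPM or more, up to 4 members of each of 45 lists with the smallest adjusted p, the 6 largest changes called with the block alone, and BRCA2, BRCA1, PARP1, TP53BP1, SLFN11, ABCB1, ETF1, CDH1, VIM and ESR1. Other members are named as examples. Of 1013 list entries 1011 matched, 7 by an older symbol, and 892 distinct genes were tested. The comparison, the genes and the lists were chosen with earlier results of these data known. Some genes of the rule and 1 list are not reported here.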

Additional observations from a re-analysis of the deposited data

Results flagged for a closer look

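Against the mean of the other clones, ABTr3 differed in 13 of the named genes with the replicate block, and 0 of these differences passed edgeR without it. They drew attention because the difference between clones itself was tested and passed with the block, and 12 of them were chosen as the largest after their values were seen. Values below are ABTr3 CPM per library, the mean CPM of the other 6 libraries, and the log2 difference in the fit with the block with its adjusted p. That difference averages ABTr1, ABTr2 and ABTr4 on the log scale. It need not match the ratio of the CPM shown where these clones differ from each other, as for LCP1 and SCNN1A. Levels in each single clone are not given for these genes, so a clone may lie near ABTr3.

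Higher in ABTr3 were 8 genes. The keratin gene KRT23 had 36.5 and 74 CPM in ABTr3, against 6.21 CPM in the other clones (3.43, adjusted p = 0.0077). The hair keratin gene KRT34 had 10.4 and 16.5 CPM in ABTr3, against 1.95 CPM in the other clones (2.89, adjusted p = 0.041). PSG1, a pregnancy glycoprotein gene with near-identical copies that can share reads, had 10.9 and 23.1 CPM in ABTr3, against 1.90 CPM in the other clones (3.10, adjusted p = 0.0084). LPL, which codes for lipoprotein lipase, had 38.3 and 15.1 CPM in ABTr3, against 4.74 CPM in the other clones (2.75, adjusted p = 0.0084). LCP1, an actin-bundling gene of leukocytes, had 48.8 and 34.9 CPM in ABTr3, against 14.1 CPM in the other clones (2.49, adjusted p = 0.036). The calcium channel gene RYR2 had 7.31 and 7.0 CPM in ABTr3, against 1.35 CPM in the other clones (2.47, adjusted p = 0.015). KIAA1644 had 12.2 and 9.16 CPM in ABTr3, against 2.62 CPM in the other clones (2.41, adjusted p = 0.028). The GABA receptor gene GABBR2 had 139 and 52.2 CPM in ABTr3, against 31.8 CPM in the other clones (2.22, adjusted p = 0.030).

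Lower in ABTr3 were 5 genes. The organic anion transporter gene SLCO2B1 had 0.172 and 2.24 CPM in ABTr3, against 7.41 CPM in the other clones (-2.92, adjusted p = 0.030). SCNN1A, a subunit of the epithelial sodium channel, had 2.68 and 3.51 CPM in ABTr3, against 35.1 CPM in the other clones (-2.70, adjusted p = 0.047). The kinase gene STK32A had 1.03 and 2.16 CPM in ABTr3, against 9.93 CPM in the other clones (-2.44, adjusted p = 0.049). SERPING1, which codes for the C1 inhibitor, had 1.82 and 8.45 CPM in ABTr3, against 24.3 CPM in the other clones (-2.23, adjusted p = 0.0084). MMP2, which codes for gelatinase A, had 2.68 and 6.82 CPM in ABTr3, against 23.1 CPM in the other clones (-2.20, adjusted p = 0.0084). Against PEO1, MMP2 and SCNN1A changed as in the other clones, and ABTr3 stood below the other clones in both. Whether these differences rest on the clone or on its culture was not tested.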

How the results depend on the processing

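With the replicate block the count of genes called was 3722 (1810 higher and 1912 lower in ABTr3), against 1216 (574 and 642) without it, and 34 genes differed from the other clones, against 0. DESeq2 gave 2526 (1217 higher and 1309 lower) and 75 against the other clones. With only the ABTr3 and PEO1 libraries the counts were 659 (272 higher and 387 lower), and 2270 (1023 and 1247) with the block added. Counts under limma-voom (1122), RLE factors (1222) and no filter (1371) stayed within 1.5 times. Leaving out 1 library gave 81 to 1256 calls, 57 to 515 higher and 24 to 741 lower. Without an ABTr3 library the higher share of calls was 67.5% or 70.4%, against 47.2% with all libraries. The log2 fold change in fits that lacked 1 library ran from -0.59 to 0.13 for BRCA1 and from -0.35 to 2.02 for GABBR2. BRCA1 was above 0 without PEO1 replicate 1, and GABBR2 was below 0 without PEO1 replicate 2 (-0.22) or ABTr3 replicate 1 (-0.35), and neither was called in these fits.

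A lone library in the fits that leave 1 out was assumed to vary like the other groups. With 2 libraries a group, a p that misses the threshold does not show that levels were alike. The filter removed 8880 genes of low counts, which were not tested. The cause of the differences between settings was not tested.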
